A study of Saccharomyces cerevisiae YPS1009 with 40 samples.

Results

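Ribosome biogenesis factors are the proteins that build ribosomes without being part of the finished particle. The 53 genes described here are a curated list of nucleolar and pre-ribosomal assembly factors of budding yeast. They include the NOP, DBP, UTP, RRP, NOG and RPF families and others. They were chosen by systematic name from the 6714 genes in the count table and not by their measured values. Earlier results of these data were known when the list was drawn up. RNA was sequenced from 5 haploid strains of YPS1009, a wild oak-soil isolate of Saccharomyces cerevisiae, at 4 time points with 2 replicates each, which gives 40 libraries. YPS1009_euploid (AGY731) carries a normal chromosome set, and YPS1009_Chr4 (AGY1835), YPS1009_Chr12 (AGY735), YPS1009_Chr14 (AGY1845) and YPS1009_Chr15 (AGY1839) each carry a full extra copy of the named chromosome. The HO mating-type switching gene was disrupted by an HphMX cassette in YPS1009_euploid and YPS1009_Chr12, while the other 3 strains carry the ho-Δ1 allele, so in those strains the ho allele and the extra chromosome cannot be told apart. Each strain is a single clone.

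All cultures were grown in rich medium (YPD) in shake flasks at 30 °C and harvested in log phase after 3 generations or at day 1, day 3 and day 7 (24, 72 and 168 hours, counted from the start of culturing in the labels and from the log-phase harvest in the study's methods), as glucose ran out and cells entered quiescence. The study asked how an extra chromosome alters the entry into quiescence. The study calls the replicates biological duplicates, and the labels do not say whether they came from separate colonies. P-values of the fit of all 40 libraries rest on a spread between replicates estimated over all groups. They do not rest on the 2 samples of a group alone, and they describe these samples only. Libraries held 725316 to 7036849 counts, with a median of 5458616 in log phase and 1261823 at day 7. Levels are counts per 1000000 (CPM) scaled by trimmed mean of M values (TMM), which sets each gene against the other transcripts of its library. They are not levels per cell, and a fall of all RNA in a cell cannot be seen on this scale.

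A growing yeast cell spends much of its transcription on making ribosomes. Box C/D and box H/ACA particles, which carry small nucleolar RNAs (snoRNAs), modify the precursor ribosomal RNA, DEAD-box helicases remodel it, and separate sets of factors assemble the small and the large subunit before export to the cytoplasm. The genes for these factors are transcribed together as the ribosome biogenesis (RiBi) regulon. When nutrients fail, the TORC1 and protein kinase A pathways no longer hold off the repressors Dot6 and Tod6, which bind the PAC element in the promoters of these genes, and the Sch9 targets Stb3 and others act through the RRPE element. The list holds 3 box C/D proteins, 3 box H/ACA proteins, 13 small subunit processing factors, 9 DEAD-box helicases, 21 large subunit assembly factors and 4 factors of large subunit export and recycling.

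The promoters of these genes carry the core letters of both elements far more often than promoters as a whole. The cores were not used to choose the genes, but both elements were already known from promoters of this class of genes. A high share was therefore likely beforehand and is not an independent result. Genes and cores were also chosen with earlier results of these data known. The window ran from 250 bases before to 50 bases after the start codon in the RefSeq R64 sequence of the reference strain S288C, and both strands were searched. GATGAG, the core of PAC, was found in 52 of 53 member promoters (98.1%) and in 20.4% of all 6007 promoters. AAAATTTT, the core of RRPE and its own reverse complement, was found in 45 of 53 (84.9%) and in 9.04% of all promoters. Both cores stood in the same window in 45 members (84.9%) and in 4.38% of all promoters. Among 99 other ribosome assembly factors, GATGAG was found in 86.9%, AAAATTTT in 69.7% and both in 60.6%, so the cores are not particular to these 53 genes. By their letters the cores cannot overlap each other, the median GATGAG began 120 bases before the start codon, and the median AAAATTTT began 144.5 bases before it. UTP22 was the member with neither core, and UTP4 had its GATGAG inside the coding sequence. A match is a run of letters and not evidence that a factor binds, and the reference strain may differ from YPS1009 at these bases.

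The stretches that follow are shown because they hold the cores of members whose values the results turn on. Each is read 5′ to 3′ on the strand of its gene, with the cores in capitals (GATGAG reads CTCATC where it lies on the other strand). NOP1 (YDL014W), NOP56 (YLR197W) and NOP58 (YOR310C) encode the box C/D proteins, CBF5 (YLR175W) the box H/ACA pseudouridine synthase and DBP9 (YLR276C) a helicase with 4 overlapping copies of GATGAG.
NOP1: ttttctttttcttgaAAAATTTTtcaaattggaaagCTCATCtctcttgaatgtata
NOP56: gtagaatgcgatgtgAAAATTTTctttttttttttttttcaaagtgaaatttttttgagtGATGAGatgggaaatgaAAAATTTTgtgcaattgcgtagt
NOP58: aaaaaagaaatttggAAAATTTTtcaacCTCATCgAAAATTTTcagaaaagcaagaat
CBF5: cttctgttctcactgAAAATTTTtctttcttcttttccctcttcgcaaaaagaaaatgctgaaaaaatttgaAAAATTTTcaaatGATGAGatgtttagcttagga
DBP9: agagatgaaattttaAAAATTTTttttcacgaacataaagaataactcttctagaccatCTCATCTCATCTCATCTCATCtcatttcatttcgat
The next set is from large subunit factors, NOP7 (YGR103W), NOG1 (YPL093W), RRB1 (YMR131C), NMD3 (YHR170W) and NOP16 (YER002W). NOP16 stands last because its RNA moved against the rest. Its window holds GATGAG but no AAAATTTT. The same is true of NOP4, NOP12, MAK5, RRP3, RRP9 and SOF1, whose RNA was lower at day 3 than in log phase in euploid cells. A link between the cores and the direction of change was not tested.
NOP7: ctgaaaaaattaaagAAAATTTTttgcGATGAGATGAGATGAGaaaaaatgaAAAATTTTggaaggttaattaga
NOG1: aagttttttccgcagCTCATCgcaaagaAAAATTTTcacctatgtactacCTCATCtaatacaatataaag
RRB1: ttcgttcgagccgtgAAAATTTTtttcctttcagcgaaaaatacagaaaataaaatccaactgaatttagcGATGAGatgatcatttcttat
NMD3: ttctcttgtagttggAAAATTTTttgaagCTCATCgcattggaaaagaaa
NOP16: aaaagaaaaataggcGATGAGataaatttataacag
These stretches lie at chr4:427124-427180 on the forward strand (NOP1), chr12:545910-546009 on the forward strand (NOP56), chr15:898453-898510 on the reverse strand (NOP58) and chr12:505918-506023 on the forward strand (CBF5). The DBP9 stretch is chr12:696950-697044 on the reverse strand, NOP7 chr7:695261-695335 forward, NOG1 chr16:370820-370890 forward, RRB1 chr13:534781-534872 reverse, NMD3 chr8:443654-443703 forward and NOP16 chr5:156683-156718 forward. All lie upstream of the start codon.

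The 2 euploid day 7 libraries differed widely in these genes, and the counts of members called against them are given with and without replicate 2. Members took 2.11 of every 1000 counts in replicate 1 and 14.5 in replicate 2, close to the 18.7 and 17.4 of the log-phase libraries. In replicate 2, 51 of 53 members were higher than in replicate 1, with a median log2 difference of 2.06 where the all-gene median was -0.06. NOP1, which encodes fibrillarin, the box C/D methyltransferase, had 26 counts in replicate 1 and 728 in replicate 2. The library stood apart in other lists as well. The 99 other ribosome assembly factors took 2.28 of every 1000 counts in replicate 1 and 11.6 in replicate 2, and 10 stationary-phase markers took 32.3 and 15.7. The ribosomal protein genes took 8.45 and 17.7, where the log-phase libraries had 225 and 230. The part of these shifts in the member levels was not tested. The YPS1009_Chr12 day 7 libraries also differed, with member shares of 0.815 and 3.32 per 1000 and a median log2 difference of 1.76. Single values in quiescent libraries rest on few reads: UTP10, a small subunit scaffold protein, had the largest log2 difference between replicates of any member and group (-5.58, YPS1009_Chr4 day 7), from 11 and 0 counts.

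**Figure D1:**
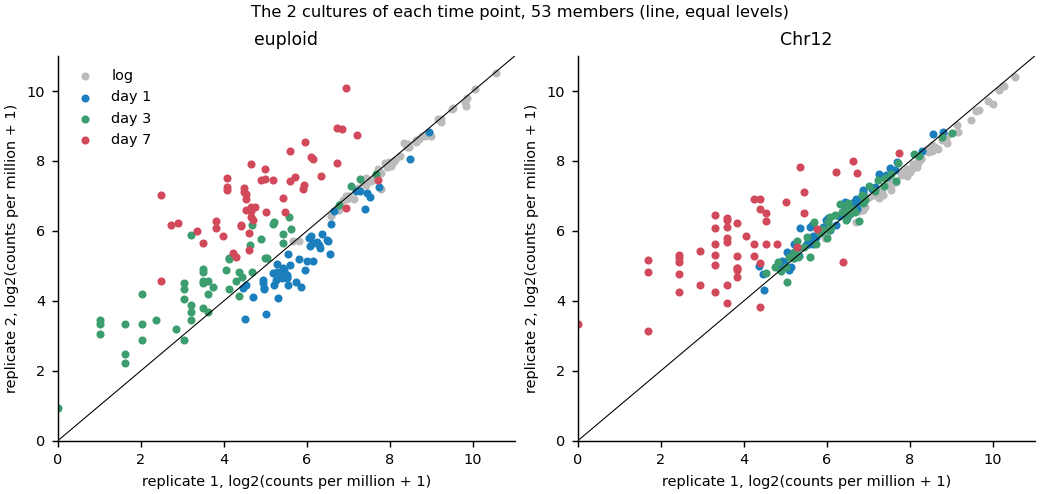
Each point is a member, with its log2(CPM + 1) in replicate 1 on the x axis and in replicate 2 on the y axis, coloured by time point, for YPS1009_euploid (left) and YPS1009_Chr12 (right). Most red day 7 points lie above the line of equal levels in both strains, with 51 of 53 members higher in replicate 2 in each.

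Log-phase euploid cells expressed every member. Per kilobase of coding sequence, NOP1 was highest at 922 and 770 CPM in the 2 libraries, and SPB4, a helicase of the large subunit pathway, was lowest at 51.9 and 46.2. DBP2, a helicase with roles in messenger RNA as well as ribosomal RNA, came next to NOP1 at 549 and 506 CPM per kilobase. TIF6, which keeps the new large subunit from joining the small one, was at 439 and 494, so that the DBP2 and TIF6 values lay close together.

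In euploid cells the whole list fell by day 1. All 53 members were lower at day 1 than in log phase by edgeR's quasi-likelihood test, with a median log2 change of -2.33 (range -4.44 to -1.17), where 35% of all 5864 genes tested were called lower and the all-gene median was 0.00. The 2 day 1 libraries lay below both log-phase libraries for all 53 members, against 44.8% of all genes. At day 3, 52 members were lower, with a median of -3.62 (41.4% of all genes lower, all-gene median -0.16), and NOP16 was higher (38.7% of all genes higher). These counts held when any 1 library of the groups compared was left out.

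**Figure D2:**
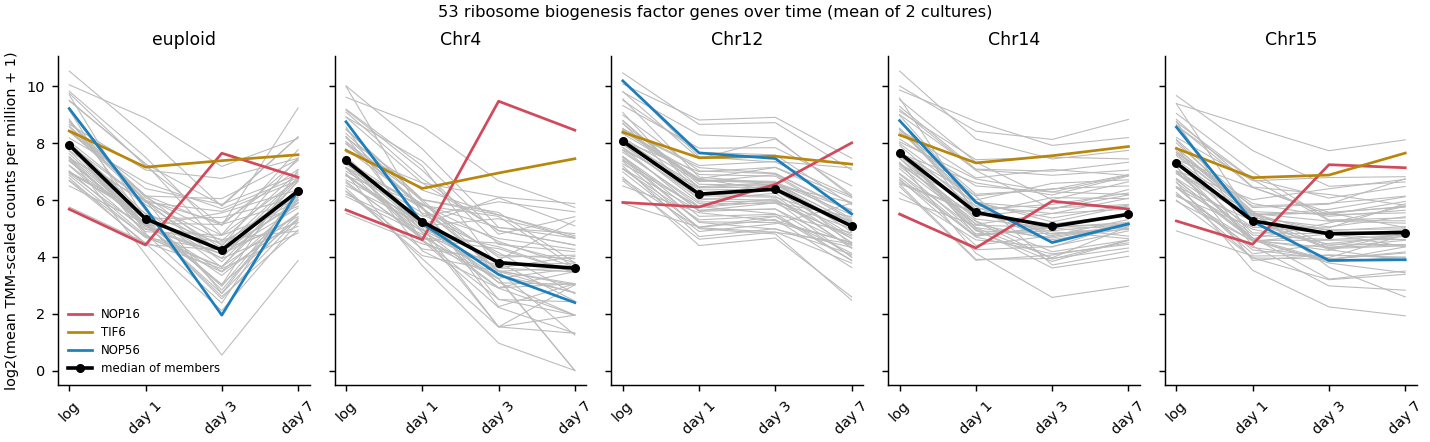
Each grey line is a member, with its log2(mean CPM + 1) over 2 libraries on the y axis and time point on the x axis, one panel per strain, and the black line is the member median. The lines fall from log phase to day 1 in every panel, the YPS1009_Chr12 median stays level from day 1 to day 3, and NOP16 (red) turns upward after day 1. TIF6 (gold) and NOP56 (blue) are also marked.

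By group median the box C/D proteins fell furthest. NOP56, a core protein of the particle, was at 601 and 591 CPM in log phase, 69.3 and 34.2 at day 1, 2.06 and 3.66 at day 3 and 15.8 and 144 at day 7. The levels at day 1 and day 3 lay below all earlier libraries without overlap, while the 2 day 7 levels lay on either side of the day 1 range. The log2 change from log phase was -3.53 ± 0.55 (SE) at day 1 (edgeR adjusted p = 1.7e-06) and -7.66 ± 0.81 at day 3 (adjusted p = 9.3e-10), the day 3 value resting on 2 and 4 counts. NOP1 was at 908 and 757 CPM in log phase, 57.3 and 20.2 at day 1 and 4.12 and 10.1 at day 3. It changed by -4.44 ± 0.62 at day 1 and -6.84 ± 0.79 at day 3 (edgeR adjusted p = 4.5e-09). The group's median was -4.42 at day 1 and -7.04 at day 3.

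The box H/ACA proteins, which are parts of the particle that carries out pseudouridylation, followed with medians of -3.54 at day 1 and -5.63 at day 3. CBF5 was at 566 and 584 CPM in log phase, 63.1 and 34.2 at day 1 and 7.22 and 15.5 at day 3, a fall of 5.63 ± 0.65 on the log2 scale by day 3 (edgeR adjusted p = 4.5e-09). GAR1, a small structural protein of the same particle, had 1269 and 596 counts in log phase and 0 and 1 at day 3, the fewest of any member at that time. NHP2 fell least of the 3, by 4.41 ± 0.45 at day 3 (edgeR adjusted p = 4.9e-10).

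The subunit assembly groups fell less and spread more widely. Small subunit processing factors had medians of -2.25 at day 1 and -3.09 at day 3. NSR1, the yeast nucleolin, fell furthest among them, from 505 and 418 CPM in log phase to 7.22 and 6.40 at day 3 (-6.08 ± 0.69, edgeR adjusted p = 3.6e-09). UTP22, the member with neither promoter core, fell least at day 3, from 417 and 395 CPM to 108 and 107 (-1.92 ± 0.33, edgeR adjusted p = 4.2e-06). KRR1, an early small subunit factor, lay between them at -3.09 ± 0.35 and UTP10 at -5.08 ± 0.63.

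Large subunit assembly factors had medians of -2.27 at day 1 and -3.43 at day 3. RRB1, the chaperone of ribosomal protein L3, went from 394 and 371 CPM to 67.9 and 57.2 at day 1 and 2.06 and 9.14 at day 3 (-6.04 ± 0.75, edgeR adjusted p = 2e-08). Within the complex of Nop7 and Erb1, which acts in 27S precursor processing, NOP7 changed by -3.58 ± 0.32 and ERB1 by -4.53 ± 0.53 at day 3. NOG1, a GTPase of the pre-60S particle, changed by -3.69 ± 0.50. Among helicases, the day 3 changes ran from -4.88 (RRP3) to -1.92 (SPB4), with DBP2 at -4.67 ± 0.77 and HAS1 at -4.42 ± 0.54.

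The export and recycling factors held the second exception. TIF6 was at 324 and 365 CPM in log phase, 144 and 140 at day 1, 154 and 179 at day 3 and 210 and 175 at day 7. It lay below log phase in all 6 later libraries but changed by only -1.05 ± 0.21 at day 3 (edgeR adjusted p = 4.1e-05). RLP24, which leaves the particle at its first cytoplasmic step, fell most in this group (-5.23 ± 0.62), and ARX1 and NMD3, both export adaptors, changed by -4.06 ± 0.56 and -2.40 ± 0.42. By day 3 NOP16 and TIF6 were the most abundant members per kilobase, at 292 and 282 CPM and at 208 and 243 CPM.

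NOP16, which encodes a constituent of pre-60S particles, was the member called against the direction of the rest. It was at 49.5 and 51.0 CPM in log phase and 21.2 and 19.6 at day 1, then at 203 and 196 at day 3 and 122 and 99.4 at day 7. The day 3 and day 7 libraries lay above both log-phase libraries without overlap. The log2 change from log phase was -1.30 ± 0.30 at day 1 (edgeR adjusted p = 0.00029), 1.99 ± 0.28 at day 3 (adjusted p = 2.4e-07) and 1.13 ± 0.28 at day 7 (adjusted p = 0.00065), or 1.28 without replicate 2 of day 7. NOP16 was also higher at day 3 than in log phase in YPS1009_Chr4 (3.85 on the log2 scale), YPS1009_Chr15 (from 39.7 and 35.1 CPM to 171 and 130) and YPS1009_Chr12 (0.65). With the 2132 genes that held 10 counts in every library, a set with its own scaling factors, the euploid changes were 0.52 at day 3 and -0.01 at day 7 and neither passed. The strand setting of the counting is not given in the sources used here, so reads of an overlapping transcript on either strand may be included.

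At day 7 the euploid result depended on the pair of libraries. With both, 49 members were lower than in log phase and 1 was higher, with a median of -1.58 (38.2% of all genes lower and 37.5% higher), and without replicate 2 the count was 52 lower with a median of -2.94 (38.8% of all genes lower). Against day 3, 48 members were higher at day 7 (median 2.34, 21.8% of all genes higher), which became 1 higher with a median of 0.61 without replicate 2 (3.33% of all genes higher). An edgeR fit of the 4 libraries compared called 3 members lower than in log phase and 0 higher than at day 3 (30 at an unadjusted p under 0.05), while DESeq2 over all libraries called 50 higher than at day 3.

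The other gene lists give the setting. Of 99 other ribosome assembly factors, 98 were lower at day 1 and 91 at day 3, with medians of -2.20 and -3.30. Of 137 cytosolic ribosomal protein genes, 136 were lower at day 1 and at day 3, with medians of -3.06 and -5.50. The 10 stationary-phase markers, HSP12 and HSP26 among them, served as the check on the time labels, and all 10 were higher at day 1 and day 3. Member counts per 100 ribosomal protein counts were 7.93 ± 0.53 (SD, n = 2) in log phase and 22.7 ± 2.54 at day 3 in euploid cells. In YPS1009_Chr12 the same ratio was 9.23 ± 1.27 and 12.8 ± 0.40.

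**Figure D3:**
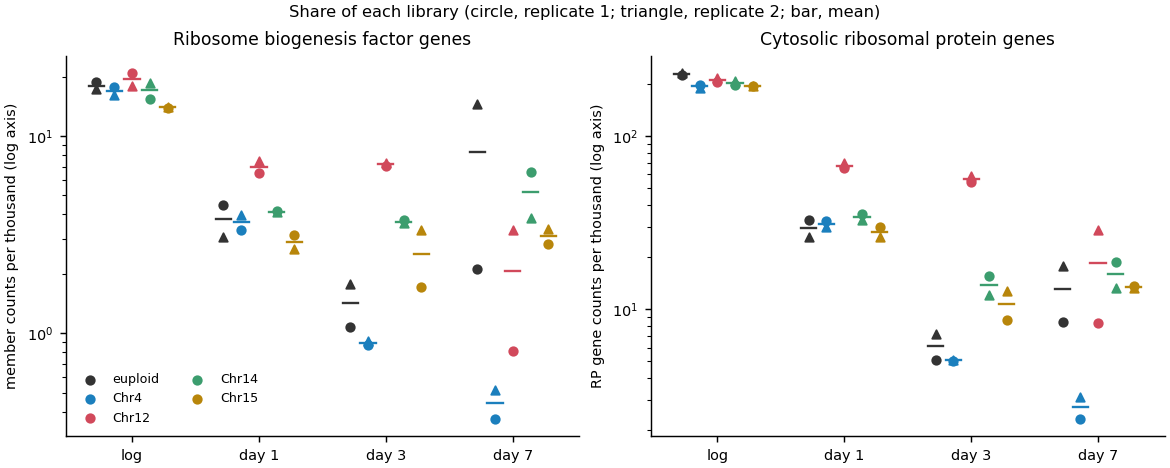
Shares of each library taken by the 53 members (left) and the 137 ribosomal protein genes (right), in counts per 1000 on a log axis, by time point, with a colour per strain, a circle for replicate 1, a triangle for replicate 2 and a bar for the mean. The euploid day 7 triangle stands at 14.5 per 1000 on the left, and YPS1009_Chr12 stands above the other strains at day 1 and day 3 in both panels.

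The aneuploids also lowered these genes on leaving log phase. At day 1, 53 members were lower in YPS1009_Chr4, YPS1009_Chr14 and YPS1009_Chr15 and 52 in YPS1009_Chr12, with medians of -2.13, -2.16, -2.10 and -1.83 (29.6%, 33.1%, 32.2% and 31.3% of all genes lower). The 52 members that were lower at day 1 in all 5 strains left out NOP16, at 62.2 and 56.6 CPM in log phase and 39.8 and 66.4 at day 1 in YPS1009_Chr12. No member's change from log phase to day 1 passed the test for a difference from euploid cells (interaction test in edgeR, 0 called in each aneuploid, and 0, 5, 0 and 0 at an unadjusted p under 0.05 in the order Chr4, Chr12, Chr14 and Chr15). DESeq2 called 1 member in YPS1009_Chr12 and 0 in the others, and without the day 7 libraries edgeR called 13 in YPS1009_Chr12 (17.2% of all genes higher). Over all genes the higher calls in that interaction were 1.96%, 9.23%, 0.426% and 1.26% in the same order of strains.

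In log phase the members on a duplicated chromosome were higher than the other members in each strain. The 7 members on chromosome 12 (NOP56, DBP9, DRS1, RLP24, CBF5, SOF1 and NOC3) had a median log2 difference from euploid of 0.94 in YPS1009_Chr12, and the other 46 had 0.01. DRS1, a large subunit helicase, was at 258 and 233 CPM in the euploid and 566 and 451 in YPS1009_Chr12, and the groups did not overlap. On-chromosome minus other members, by medians of the fitted differences, came to 0.87 in YPS1009_Chr4 (4 members) and 0.93 in YPS1009_Chr12 (7). It was 0.89 for the 5 members in YPS1009_Chr14 and 0.94 for the 6 in YPS1009_Chr15. Over all genes tested the fitted difference was 0.97, 0.98, 0.93 and 0.89. With each aneuploid culture set against the euploid mean of log levels, the 2 cultures gave 0.84 and 0.93 (Chr4), 0.96 and 0.91 (Chr12), 0.84 and 0.95 (Chr14), and 0.90 and 0.94 (Chr15). Every on-chromosome member lay above every other member in all 4 strains, DBP2 in YPS1009_Chr14 being lowest of its set at 0.26.

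**Figure D4:**
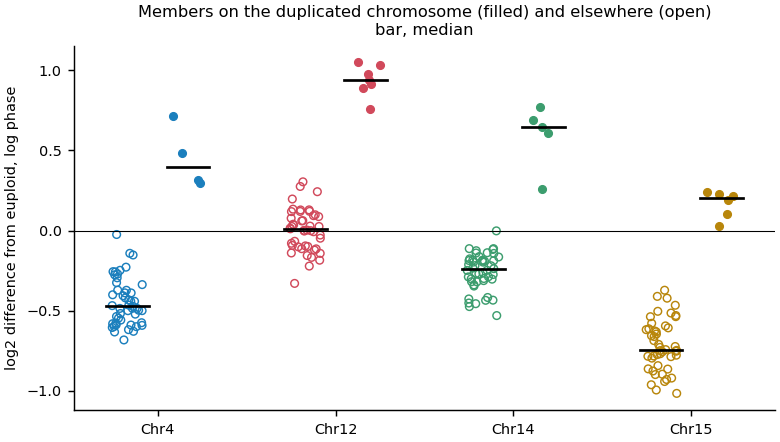
Log2 difference from euploid in log phase for each member, by strain, with members on the duplicated chromosome filled, the others open, and a bar at each median. The filled points stand above the open ones in every strain, and the open medians lie at -0.47 (Chr4), 0.01 (Chr12), -0.24 (Chr14) and -0.74 (Chr15).

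Members elsewhere in the genome lay below the euploid level in log phase in YPS1009_Chr15 and YPS1009_Chr4. In YPS1009_Chr15 both libraries were below both euploid libraries for 47 of 53 members, against 41.7% of all genes, with a median over all members of -0.71 (all-gene median -0.06). The edgeR fit of all 40 libraries called 3 of them lower (RPF1, RRP9 and TIF6; 3.7% of all genes lower), and 0 when any 1 of the 4 libraries was left out. In a fit of the 10 log-phase libraries, added after the data were seen, 42 members were lower and 3 higher (20.1% of all genes lower, 28.5% higher). SDA1, a large subunit export factor, was at 258 and 231 CPM in the euploid and 124 and 118 in YPS1009_Chr15, and the groups did not overlap. It differed by -1.02 ± 0.40, which did not pass in the fit of all libraries (adjusted p = 0.082).

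YPS1009_Chr4 differed from euploid by a median of -0.47 over all members in log phase (all-gene median -0.10), with both libraries below both euploid libraries for 45 members (42.2% of all genes). TIF6 was called lower in the fit of all libraries (-0.68 ± 0.20, edgeR adjusted p = 0.028; 2.2% of all genes lower) but not when any 1 of the 4 libraries was left out, and the log-phase fit called 28 lower and 4 higher (15% of all genes lower, 21.4% higher). With total counts in place of TMM the medians were -0.44 in YPS1009_Chr15 and -0.17 in YPS1009_Chr4, with 0 members called by edgeR (0 and 1 at an unadjusted p under 0.05). DESeq2, run with its own size factors and not with total counts, called 10 and 1. YPS1009_Chr12 and YPS1009_Chr14 had medians of 0.03 and -0.22, with 0 members called by edgeR in the fit of all libraries and 5 and 1 at an unadjusted p under 0.05. Over all genes 5.53% were higher and 2.61% lower in YPS1009_Chr12, and 4.45% and 0.563% in YPS1009_Chr14. DESeq2 also called 0 in both. The ribosomal protein genes had medians of -0.59 in YPS1009_Chr15 and -0.64 in YPS1009_Chr4.

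By day 3 the strains had separated, and YPS1009_Chr12 stood highest. There 41 of 53 members were higher than in euploid cells (38.4% of all genes higher) and NOP16 was lower (31.5% of all genes lower), with a median log2 difference of 2.01 where the all-gene median was 0.22. Both YPS1009_Chr12 libraries lay above both euploid libraries for 50 members, against 47.3% of all genes. The rise was not particular to the members: 130 of 137 ribosomal protein genes (median 3.17) and 64 of 99 other assembly factors (median 1.57) were also higher. The count of higher members was 33 to 41 when any of the 4 libraries was left out. The change from log phase to day 3 differed from that in euploid cells for 37 members, 36 in the direction of a smaller fall (33.2% of all genes) and 1 (NOP16) in the other (26.1%), with a median of 1.98.

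NOP56 had the largest fitted difference of any member. GAR1, with 0 and 1 counts in the euploid at day 3 and 90 and 52 in YPS1009_Chr12, cannot be ranked against it from so few reads. NOP56 was at 168 and 183 CPM in YPS1009_Chr12 at day 3 and 2.06 and 3.66 in the euploid, a log2 difference of 5.90 ± 0.82 (edgeR adjusted p = 4.1e-07). NOP56 lies on the duplicated chromosome. Its change from log phase differed from that in the euploid by 4.92 ± 1.01 (edgeR adjusted p = 0.00016), and both values rest on the 2 and 4 euploid counts at day 3. NOP1, not on that chromosome, was at 90.0 and 100.3 CPM against 4.12 and 10.1 (3.71 ± 0.78, edgeR adjusted p = 0.00012). RRB1 was at 89.7 and 110 against 2.06 and 9.14 (4.10 ± 0.77, edgeR adjusted p = 2.9e-05). In all 3 genes the strains did not overlap. The euploid day 3 levels of NOP1 and RRB1 also rest on few reads, 4 and 11 counts for NOP1 and 2 and 10 for RRB1.

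By role, the median difference at day 3 in YPS1009_Chr12 was 3.99 for box C/D proteins (3 of 3 higher), 3.79 for box H/ACA proteins (3 of 3), 2.41 for helicases (8 of 9), 1.91 for large subunit assembly (16 of 21), 1.74 for small subunit processing (9 of 13) and 1.22 for export and recycling (2 of 4). RLP24, a chromosome 12 gene, led the last group at 4.54 ± 0.63, while TIF6 (0.16 ± 0.21, adjusted p = 0.51) and NMD3 (0.57 ± 0.42, adjusted p = 0.23) did not pass in the fit of all libraries. TIF6 passed with total counts (0.74), with 10 counts in every library (1.15) and in DESeq2 (0.35), and NMD3 passed without the day 7 libraries (0.56). ENP1, a late small subunit factor, was lowest in its group at 0.24 ± 0.38 (adjusted p = 0.58), and UTP22 was at 0.60 ± 0.32 (adjusted p = 0.098), a value that passed under 6 of the alternatives, at 0.54 to 1.19. NOP16, at -1.10 ± 0.28 (adjusted p = 0.00093), did not pass with total counts (-0.51) or with 10 counts in every library (-0.10). The 46 members off chromosome 12 had a median of 1.92 and the 7 on it 3.79.

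**Figure D5:**
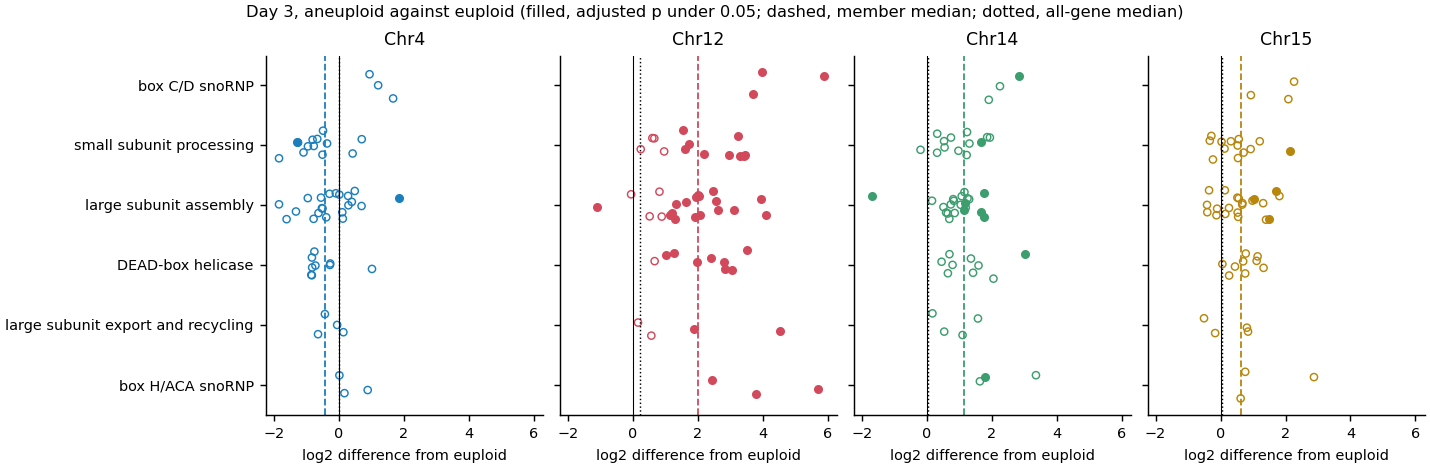
Log2 difference from euploid at day 3 (x axis) for each member, by role group (y axis), one panel per aneuploid, filled where the edgeR adjusted p is under 0.05, with a dashed line at the member median and a dotted line at the all-gene median. The member medians are -0.44 (Chr4), 2.01 (Chr12), 1.16 (Chr14) and 0.62 (Chr15), and NOP16 is the filled point on the opposite side in Chr12 and Chr14.

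In YPS1009_Chr12 itself no member changed between day 1 and day 3 past the threshold (edgeR, 0 called and 1 at an unadjusted p under 0.05, median 0.04, with 0 called by DESeq2), where 1.04% of all genes were higher and 2.1% lower. NOP1 was at 103 and 119 CPM at day 1 and at 90.0 and 100.3 at day 3, a difference smaller than its error (-0.23 ± 0.55). Between the same days 35 members fell in euploid cells (median -1.40, 36.3% of all genes lower) and NOP16 rose (30.9% of all genes higher). Without euploid day 1 replicate 1 the count of lower members was 18, and without euploid day 3 replicate 1 it was 16. By day 7, 52 members were lower than in log phase in YPS1009_Chr12, with a median of -2.97 (38.3% of all genes lower). The stationary-phase markers took 2.18 and 2.50 of every 1000 counts at day 1 in YPS1009_Chr12 and 32.4 and 35.5 in euploid cells, and 6.92 and 7.15 against 60.1 and 58.6 at day 3. Their part in the member levels was not tested.

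At day 1, 11 of 53 members were higher in YPS1009_Chr12 than in the euploid, a share near that of all genes (16.2% higher), and the median was 0.54. The 11 were all 7 members on chromosome 12 together with NOP1, NOP58, HAS1 and NOP16. Both libraries lay above both euploid libraries for 37 members (35.2% of all genes). Without euploid day 1 replicate 2, which had the lower member share (3.07 against 4.49 per 1000), 1 member was called and the median was 0.26. Without YPS1009_Chr12 day 1 replicate 1 or 2 the counts were 7 and 4.

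In YPS1009_Chr14 fewer members passed at day 3. The median difference from euploid was 1.16, both libraries lay above both euploid libraries for 48 members (32.9% of all genes), and 9 members were higher (8.94% of all genes higher) with NOP16 lower (6.31% of all genes lower). All 5 members on chromosome 14 (NOP2, NOP15, DBP2, NOG2 and RLP7) were among the 9. DBP2 was at 221 and 338 CPM against 8.25 and 58.5 in the euploid (3.04 ± 0.74, edgeR adjusted p = 0.0067). NOP7, on chromosome 7, was at 66.1 and 97.6 against 23.7 and 47.5 (1.18 ± 0.32, edgeR adjusted p = 0.015). In a fit without the day 7 libraries, added after the data were seen, 32 members were higher (16.1% of all genes), and the change from log phase differed for 32, 31 of them upward (11.1% of all genes). With all libraries the count was 1, NOP16 (1.47% of all genes lower). Without euploid day 3 replicate 1, the library with fewer member counts, 0 members were called higher in the fit of the remaining libraries and the median was 0.68. Without YPS1009_Chr14 day 3 replicate 1 or 2 the counts were 3 and 4.

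Members in YPS1009_Chr15 had a median of 0.62 at day 3, and 4 of them were higher (17.3% of all genes higher), a share below the background. NOC2, NOP12 and RRS1 lie on chromosome 15, and UTP4 on chromosome 4. RRS1, a factor that brings the 5S particle into the large subunit, was at 77.8 and 89.0 CPM against 28.9 and 53 (1.02 ± 0.30, edgeR adjusted p = 0.011). The 2 YPS1009_Chr15 libraries differed, with member shares of 1.72 and 3.33 per 1000. Without replicate 2 of YPS1009_Chr15 the median was 0.02 with 0 called, and without replicate 1 it was 1.04 with 6 called. Without euploid day 3 replicate 1 or 2 the counts were 0 and 9. The fall from log phase was smaller than in euploid cells for 4 members (14.3% of all genes), and for 35 without the day 7 libraries (22.2%), with medians of 1.25 and 1.26. Log-phase levels, the baseline of this last contrast, were lower in this strain than in the euploid.

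No rise of the list as a whole over the euploid was seen in YPS1009_Chr4 at day 3, where many members had few counts. The median was -0.44 with NOP16 higher (1.83 ± 0.28, edgeR adjusted p = 8.3e-06) and UTP22 lower (-1.30 ± 0.38, adjusted p = 0.0093), where 17.7% of all genes were higher and 13.3% lower. NOP16 reached 754 and 671 CPM in this strain at day 3, against 203 and 196 in the euploid, without overlap. UTP22 was at 49.4 and 37.9 against 108 and 107, also without overlap. Fewer than 10 counts were found for 30 and 35 members in replicates 1 and 2 of YPS1009_Chr4 at day 3. In the euploid the numbers were 20 and 7. With so few reads, the lack of calls for most members cannot show that their levels were alike in these strains. The scaling factors of the YPS1009_Chr4 day 3 and day 7 libraries were low, and with total counts the day 3 median was -1.27 with 7 members lower. The change from log phase differed upward from the euploid for NOP16 and RRS1 (11.3% of all genes).

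At day 7 the direction of the difference from euploid turned on euploid replicate 2. With both euploid libraries, members were lower in YPS1009_Chr4 (49, median -2.80, 31.8% of all genes lower), YPS1009_Chr15 (35, median -1.35, 17.3%), YPS1009_Chr12 (27, median -1.33, 15.4%) and YPS1009_Chr14 (4, median -0.85, 9.11%). Without that library 18, 1, 0 and 1 members were lower and 1, 2, 3 and 10 higher, with medians of -1.37, 0.03, 0.19 and 0.71 in the same order, and 4.37%, 15.4% and 6.41% of all genes were higher in the last 3 strains. YPS1009_Chr4 alone kept a median below the euploid on both counts, where 23.1% of all genes were lower without that library. With both euploid libraries, the 99 other assembly factors had medians of -2.40, -1.12, -0.63 and -1.11 in the order Chr4, Chr12, Chr14 and Chr15. The ribosomal protein genes had -1.45, 0.95, 0.26 and -0.08. In an edgeR fit of the 10 day 7 libraries 0 members were called in 3 strains, YPS1009_Chr12, YPS1009_Chr14 and YPS1009_Chr15 (21, 2 and 23 at an unadjusted p under 0.05), where DESeq2 over all libraries called 29, 6 and 34. The lower counts also moved with YPS1009_Chr12 day 7 replicate 1 (5 without it) and replicate 2 (44), YPS1009_Chr15 day 7 replicate 1 (16) and YPS1009_Chr14 day 7 replicate 2 (0). The change from log phase to day 7 differed from the euploid downward for 38 members in YPS1009_Chr4 (24.2% of all genes) and upward for NOP16 (16.6%), and downward for 12 in YPS1009_Chr12 (8.05%) and 4 in YPS1009_Chr15 (9.48%), all with euploid replicate 2 included. In YPS1009_Chr14 the count was 0 (4 at an unadjusted p under 0.05, and 0 by DESeq2). With any 1 library of the groups compared left out, the median of this interaction ran from -3.13 to -0.92 in YPS1009_Chr4. It ran from -2.84 to 0.17 in YPS1009_Chr12, from -1.19 to 1.01 in YPS1009_Chr14 and from -1.40 to 0.70 in YPS1009_Chr15.

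Member counts in YPS1009_Chr4 at day 7 were near the limit of these libraries. They took 0.368 and 0.514 of every 1000 counts, and 43 and 42 of the 53 members had fewer than 10 counts. NOP58, MAK5 and GAR1 had no count in either library. Against a floor of 3 counts per library, NOP58 stood at least 44.3-fold lower at day 7 than in growing cells, MAK5 at least 19.4-fold lower and GAR1 at least 14.2-fold lower. With these bounds the median change from log phase was -3.83. NOP16 went the other way, at 293 and 409 CPM against 55.9 and 42.8 in log phase. The size of this rise depends on the scaling factors, which were 0.32 and 0.38 at day 7 and 1.25 and 1.20 in log phase. Before scaling, NOP16 had 106 of 1145475 and 138 of 884007 counts at day 7. In log phase it had 372 of 5321882 and 272 of 5297081. Against euploid day 7 without replicate 2, NMD3 was lower in YPS1009_Chr4 (-2.56), the differences of NOP1 (-2.07), NOP56 (-1.87), NSR1 (-2.94), NOG1 (-0.99) and ARX1 (-0.61) no longer passed, and RRB1 turned to 0.62.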

How the data were processed

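Total RNA was depleted of ribosomal RNA and made into stranded libraries, after Schizosaccharomyces pombe cells had been added to each sample. Per the labels and the study's methods, the authors trimmed reads (Trimmomatic 0.39), mapped them with BWA (0.7.12-r1039 in the submitters' notes) to S288c carrying YPS1009 variants and counted genes with HTSeq (0.7.2). The S288c release and the strand setting are not given in the sources used here. The deposited values are raw counts of 6714 genes. The table holds no Sz. pombe genes, so the authors' scaling per cell was not applied.

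The counts were scaled by TMM and fitted in edgeR 4.0.16 (R 4.3.3, glmQLFit and glmQLFTest) with a coefficient for each strain and time point over all 40 libraries. Genes with 10 counts in at least 2 libraries were kept (5864, all 53 members included), and p-values were adjusted by Benjamini-Hochberg over all of them, with a threshold of 0.05. The biological coefficient of variation was 0.19, and with 2 libraries a group an exact permutation test cannot go below p = 0.33. Alternatives were DESeq2 1.42.0, other scalings and filters, a replicate block, smaller fits and each library left out.

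Named members were the set NOP1, NOP56, NOP58, NSR1, CBF5, DBP2, HAS1, UTP10, UTP22, KRR1, NOP7, ERB1, NOG1, TIF6, NMD3, ARX1 and RRB1, the extremes of each role group, members on the duplicated chromosome, members called against the rest and the member with the widest replicate difference. SDA1, DRS1 and GAR1 values at single times follow from those rules. The members, lists and motifs were chosen with earlier results of these data known. All 53 names matched RefSeq by systematic name.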

Additional observations from a re-analysis of the deposited data

Results flagged for a closer look

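The change from log phase differed between an aneuploid and the euploid, by the interaction test in edgeR, for 37 members at day 3 in YPS1009_Chr12, 4 in YPS1009_Chr15, 2 in YPS1009_Chr4 (NOP16 and RRS1) and 1 in YPS1009_Chr14 (NOP16). At day 7 it differed for 39 members in YPS1009_Chr4, 12 in YPS1009_Chr12 and 4 in YPS1009_Chr15. With any 1 library of the groups compared left out, the median day 7 difference ran from -3.13 to -0.92 in YPS1009_Chr4. It ran from -2.84 to 0.17 in YPS1009_Chr12 and from -1.40 to 0.70 in YPS1009_Chr15. No group was large enough for a test of single outlying samples.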

How the results depend on the processing

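Replicate numbers marked no shared batch in the labels. The correlation across genes of replicate 2 minus replicate 1 between the groups compared ran from -0.49 to 0.41 (median 0.02) over 41 pairs and exceeded 0.1 in 10. With the replicate number as a block, all 47 counts of called members stayed within 1.5 times, with 53 lower in the euploid at day 1. With 10 counts required in every library only 6 members passed, so that filter gave no count. The fits without day 7 and of a single time point were chosen after seeing the data.

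Members called against euploid or between times moved as follows, strains written as Chr4, Chr12, Chr14 and Chr15. With DESeq2 size factors, log Chr15 went from 3 to 5, and the interactions of day 1 Chr12 from 0 to 1 and day 3 Chr15 from 4 to 11. With total counts, euploid day 7 against log went from 50 to 29, Chr12 day 3 against log from 52 to 32, log Chr4 from 1 to 0, day 1 Chr4 from 1 to 0, day 3 Chr4 from 2 to 8, day 7 Chr12 from 28 to 45, day 1 Chr14 from 1 to 0 and log Chr15 from 3 to 0. The interactions went from 2 to 1 (day 3 Chr4), 0 to 1 (day 1 Chr12), 12 to 33 (day 7 Chr12), 1 to 0 (day 3 Chr14) and 4 to 2 (day 3 Chr15). With DESeq2, day 3 Chr14 went from 10 to 17, log Chr15 from 3 to 10, day 3 Chr15 from 4 to 8, and the interactions of day 1 Chr12 from 0 to 1, day 3 Chr14 from 1 to 7 and day 3 Chr15 from 4 to 15. Without a filter the day 3 interactions were 1 in Chr4 and 11 in Chr15.

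In fits of only the groups compared, euploid day 7 gave 4 against log and 0 against day 3, and Chr12 gave 2 for day 3 against day 1 and 13 for day 7 against day 3. Against euploid, Chr4 gave 41 in log phase, 3 at day 1 and 4 at day 3, Chr12 gave 10, 24 and at day 7 0, Chr14 gave 8, 5, 34 and 0, and Chr15 gave 52, 1, 14 and 0. The interactions were 16 (day 7 Chr4), 16 and 0 (day 1 and day 7 Chr12), 37 (day 3 Chr14) and 1, 37 and 0 (day 1, 3 and 7 Chr15). Without the day 7 libraries, Chr12 day 3 against day 1 gave 1, Chr4 gave 17, 5 and 7 in log phase, day 1 and day 3, Chr12 gave 7 and 23, Chr14 gave 3, 5 and 33 and Chr15 gave 40, 3 and 16, with interactions of 13 (day 1 Chr12), 32 (day 3 Chr14) and 35 (day 3 Chr15). In fits of 1 time point, log phase gave 32, 7, 8 and 45 in the order Chr4 to Chr15, day 1 gave 5, 27, 5 and 2, day 3 gave 5 in Chr4, 31 in Chr14 and 13 in Chr15, and day 7 gave 0 in Chr12, Chr14 and Chr15. The mean in place of the median gave a dosage difference of 0.88 in Chr15. These are counts of members only, and calls over all genes rose in smaller fits as well. In the log-phase fit the share of all genes called lower went from 2.2% to 15% in Chr4 and from 3.7% to 20.1% in Chr15. Without the day 7 libraries the share higher at day 3 in Chr14 went from 8.94% to 16.1%. A larger count of members is therefore not by itself a result about these genes. The cause was not tested for these shifts.

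Leaving out each library gave ranges of 0 to 0 for log Chr4 and log Chr15, 0 to 1 for day 1 Chr4 and day 1 Chr14, 1 to 11 for day 1 Chr12, 1 to 3, 1 to 9 and 0 to 9 for day 3 Chr4, Chr14 and Chr15, and 19 to 52, 3 to 46, 0 to 43 and 3 to 46 for day 7 Chr4 to Chr15. Between times they were 17 to 36 (euploid day 3 against day 1), 1 to 51 (euploid day 7 against day 3) and 2 to 40 (Chr12 day 7 against day 3). The interaction ranges were 0 to 2 (day 1 Chr12), 1 to 2, 0 to 3 and 0 to 12 (day 3 Chr4, Chr14 and Chr15) and 10 to 51, 1 to 49, 0 to 29 and 0 to 36 (day 7 Chr4 to Chr15). The dosage difference ran from 0.90 to 0.97 in Chr12 and from 0.90 to 0.95 in Chr15. Of the values of single named genes, 954 kept their side, 36 lost the call, 13 gained it and 3 reversed: NOP16 at euploid day 7 against log with 10 counts in every library (-0.0072), NOP16 in Chr4 against euploid at day 7 with total counts (-0.16) and RRB1 in Chr4 against euploid at day 7 with each library left out (-4.83 to 0.62, the highest without euploid day 7 replicate 2).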
